A study of Homo sapiens with 8 samples.

Results

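PDCD4, an inhibitor of the translation helicase eIF4A, was followed together with the genes of the machinery it acts on across the M1 to M4 series of mammary epithelial cells. The 10 genes were chosen by name and not by their values: PDCD4, the helicases EIF4A1, EIF4A2 and EIF4A3, the cap-binding protein EIF4E, the scaffolds EIF4G1, EIF4G2 and EIF4G3, and the eIF4E inhibitors EIF4EBP1 and EIF4EBP2. All 10 were matched by Ensembl identifier to 1 row each of the 56632 genes in the count table, and all 10 passed the filter on low counts, as did 18431 genes in all. Poly A+ RNA was sequenced from 4 isogenic cell lines with 2 biological replicates each, grown as acini in Matrigel for 8 days. M1 is MCF10A, a spontaneously immortalized, non-tumorigenic breast epithelial line. M2 is MCF10AT1k.cl2, made from MCF10A by transfection with activated HRAS and selected by growth as a xenograft. The 2 remaining lines were established from tumors that formed when M2 was grown in mice: MCF10Ca1h is M3 and MCF10CA1a.cl1 is M4. Each line stands for 1 such derivation. All lines had 2% horse serum, hydrocortisone, cholera toxin and insulin. EGF at 10 ng/ml was given to M1 and M2 and left out for M3 and M4, so that in any comparison of M3 or M4 with M1 or M2 the line and the medium cannot be told apart.

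Translation of most mRNAs starts at the cap, which eIF4E binds. eIF4G joins eIF4E to the RNA helicase eIF4A, and the helicase opens structure in the leader of the mRNA so that the ribosome can scan to the start codon. PDCD4 binds eIF4A and keeps it out of this complex, whereas the 4E-BPs occupy eIF4E and keep eIF4G away. Signalling through mTOR complex 1 and S6 kinase marks PDCD4 protein for degradation and releases the 4E-BPs from eIF4E. PDCD4 is known as a tumor suppressor in breast epithelium and other tissues, and its mRNA is a known target of the microRNA miR-21. The values below are mRNA levels and say nothing of protein or phosphorylation.

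Library totals ran from 69669970 to 107350344 counts, and members had between 4266 and 172503 counts in a library, so counting error was small beside the spread between replicates. That spread differed between lines. Between replicates the coefficient of variation was lowest in M2 (0.058), and it was 0.271 for M4, 0.307 for M3 and 0.377 for M1. A table among the study's supplementary files gives the library labelled M1 replicate 2 to M2 and the library labelled M2 replicate 1 to M1. The sample labels were used here, and which assignment is right was not settled. For M3 and M4, the numbers in the names of the count columns follow the order of the lines within each replicate. The same order for M1 and M2 would give the supplementary assignment and not that of the labels. Over 13495 genes, Spearman's rho was 0.971 between the libraries labelled M1 and 0.998 between those labelled M2, whereas the pairs that the exchange would form had a rho of 0.960 and 0.962. With the libraries exchanged, 9.85% of all tested genes were called in M4 against M1 in place of 31.4%, and 1.21% in M3 against M1 in place of 21.3%. The libraries of M1 and M2 did not overlap for 8 of the 10 genes under the sample labels and for 1 of 10 (EIF4G3) after the exchange. The share of all genes without such overlap was not counted. The counts of 8 and 1 of the 10 genes therefore give no result about these genes and were not used to judge the assignment. Statements on where single libraries lie follow the sample labels, and calls lost with the exchange are given beside the genes or lists they touch. Keratin 5 (KRT5) was at 2838 to 9190 CPM (counts scaled to library size). Keratin 14 (KRT14) was at 2.30 and 2.74 CPM in M4 against 8.26 to 99.7 CPM elsewhere. Of 7 basal mammary markers, 6 were called in M4 against M1, beside 31.4% of all genes. LAMB3, EPCAM and KRT17 were higher and KRT14, TP63 and KRT5 lower, whereas CDH1 was not called. With the libraries exchanged, the call of KRT17 was lost. The blood markers PTPRC and CD3E were at or near 0, and COL1A1, a stromal marker, was between 6.07 and 25.5 CPM. HRAS was at 154 and 139 CPM in M1, 160 and 154 CPM in M2, 269 and 327 CPM in M3, and 335 and 352 CPM in M4. It was 2.04-fold higher in M3 and 2.35-fold higher in M4 than in M1 (adjusted p from edgeR 0.0038 and 0.00119), whereas M2, the line made by transfection, was not called different (log2 fold change 0.10 ± 0.15 SE, adjusted p from edgeR 0.736). With the libraries exchanged the M4 difference was called (adjusted p 0.0139) and that of M3 was not (0.0658).

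PDCD4 (ENSG00000150593, GRCh37 chr10:112631553-112659764, plus strand) fell in M3 and M4. Its level was 299 and 176 CPM in M1 replicates 1 and 2, 156 and 159 CPM in M2, 78.3 and 56.6 CPM in M3, and 51.0 and 58.8 CPM in M4. All M3 and M4 libraries lay below all M1 and M2 libraries, the M2 libraries lay below both M1 libraries, and M3 and M4 overlapped. With the libraries exchanged, M1 and M2 overlapped too, whereas M3 and M4 still lay below both. The M1 replicates stood further apart than those of any other line. PDCD4 mRNA was 3.52-fold lower in M3 than in M1 (log2 fold change -1.82 ± 0.27 SE, adjusted p from edgeR 0.00405) and 4.33-fold lower in M4 (-2.11 ± 0.27, adjusted p 0.00147). Against M2 it was 2.33-fold lower in M3 (-1.22 ± 0.26, adjusted p 0.0401) and 2.87-fold lower in M4 (-1.52 ± 0.27, adjusted p 0.00718). Neither comparison within 1 medium was called by this fit. The log2 fold change was -0.59 in M2 against M1, with a 95% interval from -1.20 to 0.01 (adjusted p 0.220). Leaving out the first M1 library gave -0.16 and leaving out the second gave -0.92, neither of them called, and the fit with no filter on low counts called it (adjusted p 0.0319). The log2 fold change was -0.30 in M4 against M3, with an interval from -0.90 to 0.30 (adjusted p 0.458).

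The fall of PDCD4 in M4 against M1 was called in all 12 alternative fits, and the log2 fold change ran from -2.45 without M1 replicate 2 to -1.66 without M1 replicate 1. With the 2 libraries exchanged, the adjusted p was 0.0128 in M4 against M1 and 0.0551 in M3 against M1. The call in M3 against M2 was lost without any 1 of those 4 libraries (adjusted p 0.0649 to 0.227) and with the exchange (0.107), and the call in M4 against M2 was lost without M4 replicate 1 (0.0607). In bulk RNA, fewer cells that express a gene and less RNA per cell cannot be told apart.

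The microRNA site by which PDCD4 is best known lies in its 3′UTR. The mature miR-21 and the 22 bases that end 1 base past its seed match in PDCD4 are shown because they mark where that target site is, with the sites of EIF4EBP2 for comparison. Capitals mark the seed (bases 2 to 8 of the microRNA) and its match (ATAAGCT) on the strand of the mRNA. The microRNA is from RefSeq and the sites are from GRCh37, plus strand, at chr10:112658074-112658095, chr10:72183526-72183547 and chr10:72185222-72185243.
hsa-miR-21-5p: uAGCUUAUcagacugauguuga
PDCD4 site 1: agtggaatattctaATAAGCTa
EIF4EBP2 site 1: ttgatgtctcaggaATAAGCTg
EIF4EBP2 site 2: taggtttaatctagATAAGCTg
Among the canonical transcripts of the 10 genes, the 3′UTR of PDCD4 (1918 bases) held 1 match and that of EIF4EBP2 (6871 bases) held 2. No match was found in the other 8, whose 3′UTRs were 430 to 1752 bases long. Of 19403 canonical 3′UTRs, 8.63% held the 7 letters, at a median length of 1068 bases. Of the 2 genes with a match, PDCD4 fell as given above, and EIF4EBP2 was not called in any comparison. The matches differ in the base that follows, which is a in PDCD4 and g in both sites of EIF4EBP2. The part of the microRNA in these values was not tested. The microRNA itself was not measured by these poly A+ counts.

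PDCD4-AS1 (ENSG00000203497, chr10:112629499-112632011, minus strand) is the natural antisense transcript at the start of PDCD4. Its counts went from 180 and 125 for M1 through 74 and 60 for M2 and 33 and 15 for M3 to 15 and 10 for M4, which is from 2.18 and 1.52 CPM to 0.132 and 0.128 CPM. No library of M2, M3 or M4 reached the M1 level, although M1 and M2 overlapped with the 2 libraries exchanged. The log2 fold change against M1 was -2.65 ± 0.52 SE in M3 (adjusted p from edgeR 0.0120) and -3.81 ± 0.56 in M4 (adjusted p 0.00247), and -1.23 ± 0.49 in M2 (adjusted p 0.189). The count of PDCD4 was 115 to 459 times that of its antisense partner. These counts are not scaled to length, and the canonical transcripts have 3481 bases for PDCD4 and 925 for PDCD4-AS1, so the ratio per length is smaller. Per kilobase the mean levels were 68.2 and 2.00 CPM in M1 and 15.8 and 0.141 CPM in M4. The exons of the antisense gene share 0 bases with those of PDCD4 in GENCODE release 44. BBIP1, on the opposite strand, shares 1277 exonic bases with PDCD4 and had 446 to 1451 counts. The counts were made on GENCODE v19, in which exon overlaps were not examined and may differ. Whether the counting used strand is not given in the sources used here. With the 2 libraries exchanged, the fall of PDCD4-AS1 in M3 was not called (adjusted p 0.166) and that in M4 was (0.0337).

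**Figure D1:**
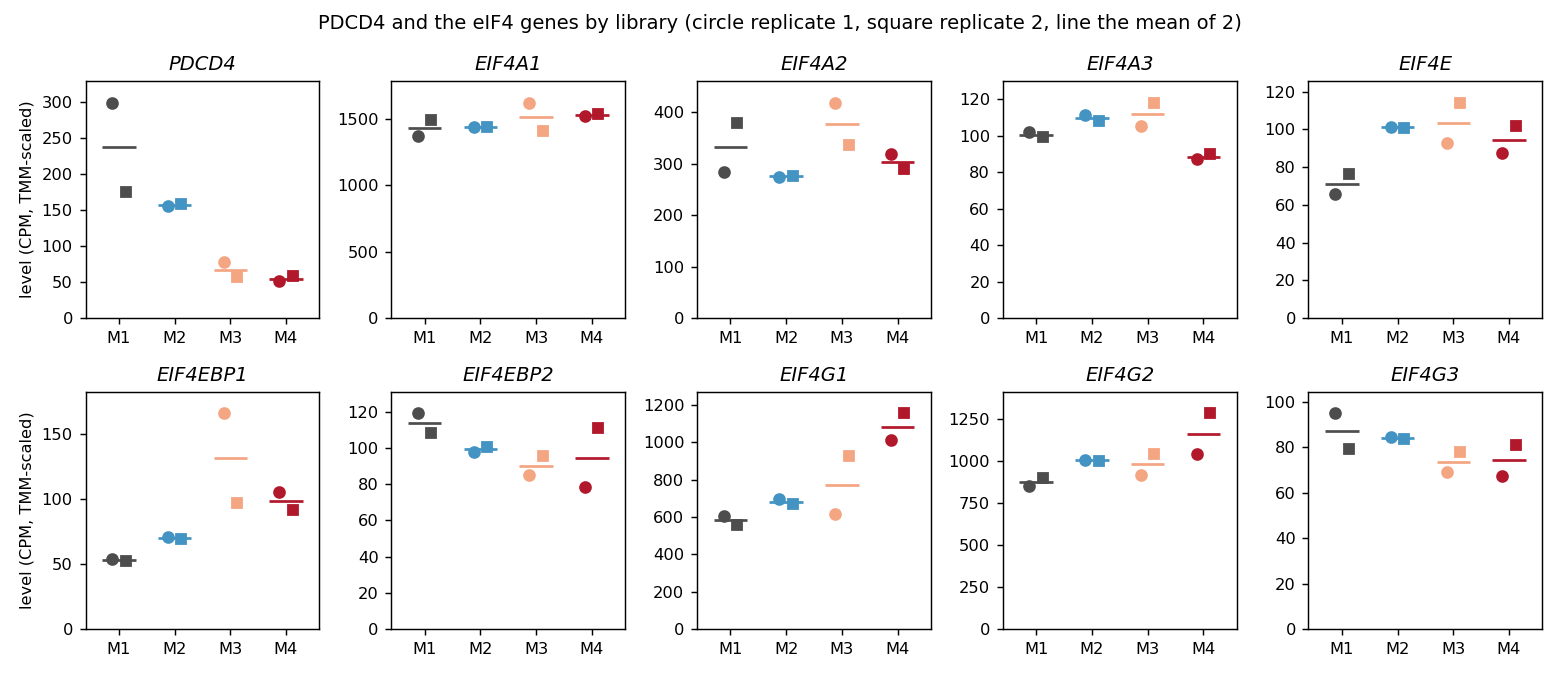
Level of each of the 10 genes (CPM on the vertical axis, which starts at 0) in the 2 libraries of M1, M2, M3 and M4. Circles are replicate 1, squares replicate 2, and lines the mean. PDCD4 goes from 299 and 176 in M1 to 51.0 and 58.8 in M4, whereas EIF4A1 stays between 1374 and 1624.

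None of the 3 helicase genes was called in any of the 6 comparisons by edgeR or DESeq2, while EIF4A2 in M3 against M2 and EIF4A3 in M4 against M2 and against M3 had an unadjusted p under 0.05. Among the other fits, 1 called a helicase: a fit of only M2 and M4 called EIF4A3 (adjusted p 0.0300). EIF4A1 (ENSG00000161960, chr17:7476142-7482324), the main eIF4A of proliferating cells, was at 1374 and 1492 CPM in M1, 1444 and 1438 CPM in M2, 1624 and 1412 CPM in M3, and 1520 and 1541 CPM in M4. The ranges of the 4 lines lay close together, and the lowest and the highest library differed by a smaller fold than the replicates of PDCD4 in M1. The log2 fold change of EIF4A1 in M4 against M1 was 0.09 with a 95% interval from -0.27 to 0.46, which does not reach the interval of PDCD4 (-2.74 to -1.49). EIF4A2 (ENSG00000156976, chr3:186500994-186507686), the closely related second helicase of the cap complex, was at 283 and 380 CPM in M1, 275 and 277 CPM in M2, 419 and 337 CPM in M3, and 319 and 289 CPM in M4. Its M1 and M3 replicates were as far apart as the lines, and its direction in M2 and M4 against M1 turned with the 2 libraries exchanged. EIF4A3 (ENSG00000141543, chr17:78108168-78120950) belongs to the exon junction complex, which is left on spliced mRNA, and not to the cap complex. It was at 102 and 99.0 CPM in M1, 111 and 108 CPM in M2, 105 and 118 CPM in M3, and 87.2 and 89.7 CPM in M4. The M4 libraries were the lowest of the series, but the differences from M3 (-0.34 ± 0.12 SE, adjusted p from edgeR 0.101), from M2 (-0.31 ± 0.12, adjusted p 0.113) and from M1 (-0.19 ± 0.12, adjusted p 0.291) were not called.

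EIF4A1 made up 80.6 to 85.1% of the EIF4A1 and EIF4A2 level per kilobase of canonical transcript in all 8 libraries. EIF4A1 shares 2187 exonic bases with an unnamed noncoding gene on its strand (ENSG00000264772, 196 to 667 counts), and its 13 named pseudogenes held 0.381 to 0.536% of its count, so a small part of its reads is uncertain.

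To set PDCD4 against these partners, the level per kilobase of EIF4A1 plus EIF4A2 was divided by that of PDCD4 in each library. The ratio was 4.72 and 9.03 for M1 replicates 1 and 2, 9.43 and 9.20 for those of M2, 22.1 and 26.2 for M3, and 30.7 and 26.6 for M4. All 4 libraries of M3 and M4 lay above all 4 of M1 and M2, and M1 replicate 2 was close to the M2 libraries. The mean log2 ratio was 4.71 ± 0.19 (SD, n = 4) in M3 and M4 and 2.96 ± 0.48 (SD, n = 4) in M1 and M2, a 3.37-fold difference. Leaving out any 1 library gave differences of 1.51 to 1.84 on the log2 scale. The ratio is a description: it follows PDCD4, since EIF4A1 and EIF4A2 varied little, and the 4 libraries of a side are 2 lines, which differ from the other 2 in EGF as well. No p is given for it, because libraries of 1 line are not independent of each other.

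**Figure D2:**
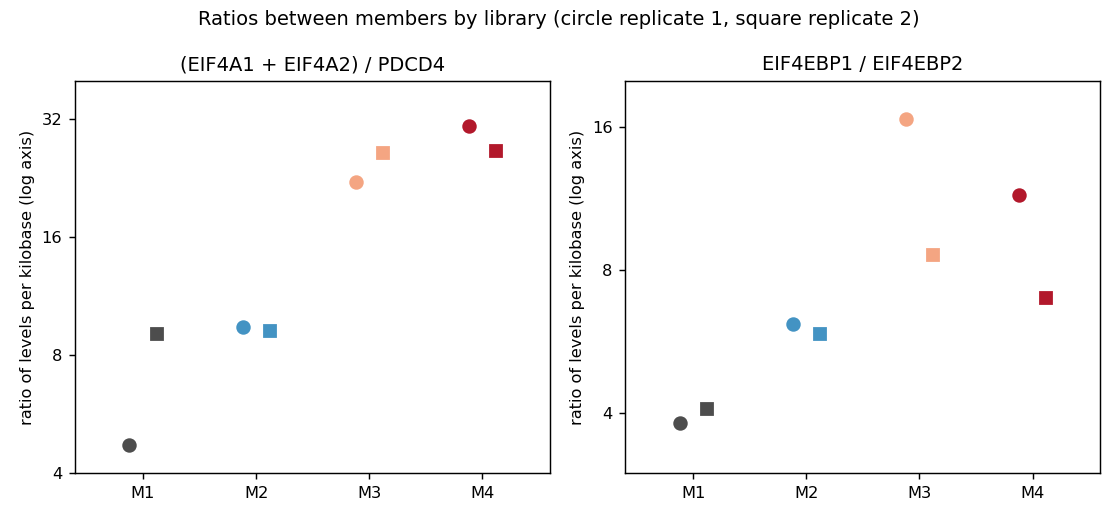
Ratio of levels per kilobase (log axis) of EIF4A1 plus EIF4A2 to PDCD4 (left) and of EIF4EBP1 to EIF4EBP2 (right) in each library of M1 to M4. Circles are replicate 1 and squares replicate 2. The left ratio is 4.72 to 9.43 in M1 and M2 and 22.1 to 30.7 in M3 and M4, and the right ratio is 3.82 to 6.16 in M1 and M2 and 7.0 to 16.6 in M3 and M4.

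EIF4E (ENSG00000151247, chr4:99800427-99850284), the cap-binding protein, was lowest in M1. It was at 65.7 and 76.1 CPM in M1, 101 and 101 CPM in M2, 92.6 and 114 CPM in M3, and 87.4 and 102 CPM in M4. Every library of M2, M3 and M4 lay above both M1 libraries, and these 3 lines overlapped. With the 2 libraries exchanged, M1 would hold 65.7 and 101 CPM and M2 76.1 and 101 CPM, and M1 then overlapped the 3 other lines. EIF4E was 1.46-fold higher in M3 than in M1 (0.54 ± 0.16 SE, adjusted p from edgeR 0.0458). The log2 fold changes in M2 (0.51 ± 0.16, adjusted p 0.110) and M4 (0.42 ± 0.16, adjusted p 0.0814) were not called, and a difference between these changes was not called either (M3 against M2 0.03, M4 against M3 -0.13). The M3 call was close to the threshold: 5 of 12 alternative fits kept it, and without M1 replicate 1 the adjusted p was 0.171, without M1 replicate 2 it was 0.0626, without M3 replicate 2 it was 0.151, and with the 2 libraries exchanged it was 0.577. The 5 named EIF4E pseudogenes held 3.76 to 6.25% of its count, the highest share among the 10 genes.

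The summed level of 8 proliferation markers was also lowest in M1, at 576 to 646 CPM against 1583 to 1607 CPM in M2, 1469 to 1589 CPM in M3 and 1256 to 1743 CPM in M4. With the 2 libraries exchanged, M1 would hold 646 and 1607 CPM and M2 576 and 1583 CPM. All 8 were called higher in M3 against M1 (12.9% of all genes), 7 of 8 in M4 (15.6%) and 7 of 8 in M2 (3.37%), and after the exchange edgeR called 0 of 8 in each line, with 0 at an unadjusted p under 0.05. Their part in the values of EIF4E or PDCD4 was not tested.

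Of the 2 eIF4E inhibitors, edgeR called EIF4EBP1 in M3 and M4 against M1 and EIF4EBP2 in no comparison. EIF4EBP1 (ENSG00000187840, chr8:37888052-37917883) was at 53.5 and 52.0 CPM in M1, 70.8 and 69.2 CPM in M2, 166 and 96.8 CPM in M3, and 106 and 91.4 CPM in M4. The M2 libraries lay above those of M1, and those of M3 and M4 above all of M1 and M2, with M3 replicate 1 far above its partner. With the 2 libraries exchanged, M1 and M2 overlapped. EIF4EBP1 was 2.49-fold higher in M3 than in M1 (1.32 ± 0.24 SE, adjusted p from edgeR 0.00852) and 1.87-fold higher in M4 (0.90 ± 0.23, adjusted p 0.0232). The M4 call was lost without any 1 of the M1 and M4 libraries (adjusted p 0.0577 to 0.107), and with the 2 libraries exchanged neither was called (0.132 in M3, 0.194 in M4). Without M3 replicate 1 the log2 fold change in M3 was 0.88 with an adjusted p of 0.0102, and without M3 replicate 2 it was 1.66 with an adjusted p of 0.00237.

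EIF4EBP2 (ENSG00000148730, chr10:72163901-72188374), the second 4E-BP, was at 119 and 108 CPM in M1, 97.9 and 100 CPM in M2, 84.9 and 95.6 CPM in M3, and 78.1 and 111 CPM in M4. Its M4 replicates spanned the values of M2 and M3, and no comparison was called, the log2 fold change against M1 being -0.20 ± 0.18 SE for M2, -0.33 ± 0.18 for M3 and -0.27 ± 0.18 for M4. The ratio of EIF4EBP1 to EIF4EBP2 per kilobase was 3.82 and 4.09 for M1, 6.16 and 5.86 for M2, 16.6 and 8.61 for M3, and 11.5 and 7.0 for M4. It was given as a description, and its libraries overlapped only between M3 and M4 (under the exchange also between M1 and M2). The summed level of both 4E-BPs to EIF4E was 5.80 and 4.81 for M1, 4.59 and 4.54 for M2, 10.7 and 5.34 for M3, and 7.42 and 5.80 for M4. In this ratio M3 overlapped M1 and M4, and the lower M4 library (5.798) lay barely above the higher M1 library (5.795).

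Among the scaffolds, edgeR called only EIF4G1, in M4 against M1, and a difference between scaffolds was not tested. EIF4G1 (ENSG00000114867, chr3:184032283-184053146), the scaffold of cap-dependent initiation, was at 608 and 558 CPM in M1, 695 and 669 CPM in M2, 616 and 927 CPM in M3, and 1013 and 1156 CPM in M4. The M4 libraries were the highest, and the M3 replicates spanned the M2 level. EIF4G1 was 1.86-fold higher in M4 than in M1 (0.90 ± 0.21 SE, adjusted p from edgeR 0.0164). It was 1.59-fold higher in M4 than in M2 without being called (0.67 ± 0.21, adjusted p 0.0575), and 4 of 12 alternative fits called that difference. The M4 against M1 call was lost without M1 replicate 2 (adjusted p 0.0768), without M4 replicate 2 (0.0926) and with the 2 libraries exchanged (0.120).

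EIF4G2 (ENSG00000110321, chr11:10818597-10830487), a relative that lacks the eIF4E-binding part, was at 854 and 900 CPM in M1, 1007 and 1003 CPM in M2, 918 and 1041 CPM in M3, and 1041 and 1285 CPM in M4. All M4 libraries lay above those of M1, at a log2 fold change of 0.41 ± 0.17 SE that was not called (adjusted p from edgeR 0.104). EIF4G3 (ENSG00000075151, chr1:21132785-21503778), the third scaffold, was at 95.01 and 79.1 CPM in M1, 84.5 and 83.9 CPM in M2, 69.2 and 77.9 CPM in M3, and 67.6 and 81.1 CPM in M4. Its libraries overlapped in 3 of the 6 comparisons and lay lower without overlap in the other 3 (M3 against M1, and M3 and M4 against M2). Its log2 fold changes against M1 ran from -0.24 to -0.05, with none called.

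**Figure D3:**
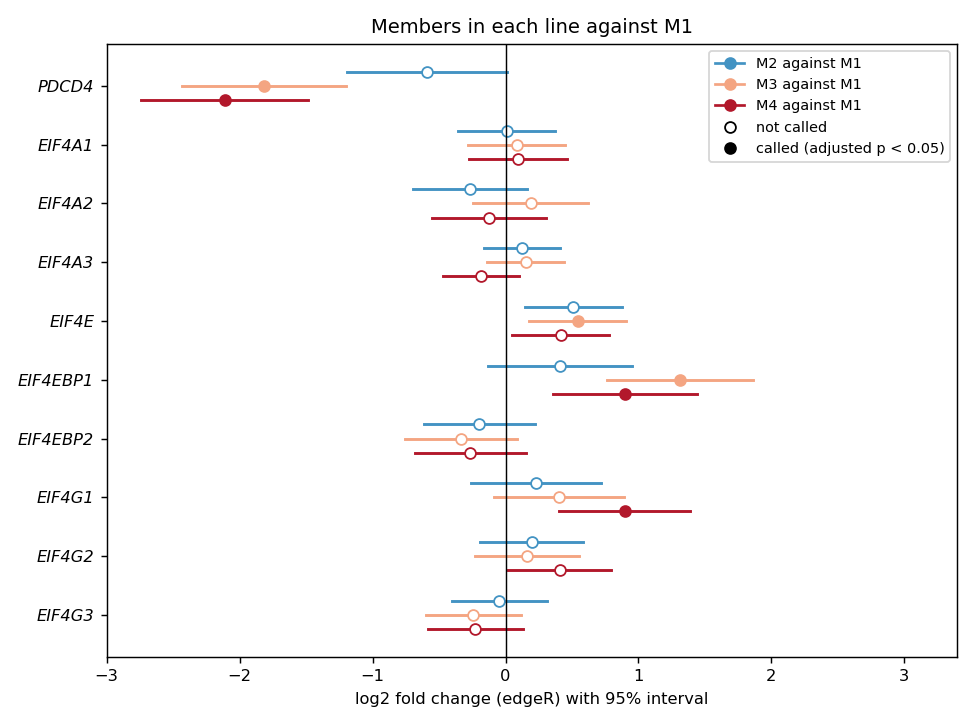
Log2 fold change from edgeR with its 95% interval (horizontal axis) of each of the 10 genes in M2, M3 and M4 against M1. Filled points were called at an adjusted p under 0.05 and open points were not. PDCD4 lies at -1.82 in M3 and -2.11 in M4, EIF4EBP1 at 1.32 and 0.90, and the 3 EIF4A genes lie near 0.

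Counted together, 3 of the 10 genes were called in M3 against M1 (EIF4E and EIF4EBP1 higher, PDCD4 lower), where 21.3% of all tested genes were called, 12.9% of them higher and 8.33% lower as shares of the genes tested. In M4 against M1 again 3 were called (EIF4G1 and EIF4EBP1 higher, PDCD4 lower), where 31.4% of all genes were called, 15.6% higher and 15.8% lower. So the share of members called was close to that of all genes. With the libraries exchanged, edgeR called 0 members in M3 against M1 (2 at an unadjusted p under 0.05) and PDCD4 alone in M4 against M1. In M3 against M2 (5.55% of all genes called, 1.56% lower) and in M4 against M2 (22.2% called, 11.1% lower), PDCD4 was the 1 member called. In M2 against M1 (4.83% of all genes called) and M4 against M3 (16.8%), edgeR called 0 of the 10 and DESeq2 called 0, with 1 and 2 members at an unadjusted p under 0.05. The median log2 fold change of the 10 genes in M4 against M1 was -0.02, the same as the median of all tested genes (-0.02).

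Where a change over 2-fold was also asked for, PDCD4 was called in M3 against M1 (13.5% of all genes by that rule), M4 against M1 (20.7%), M3 against M2 (4.15%) and M4 against M2 (13.9%), and EIF4EBP1 in M3 against M1. By the rule of a change over 2-fold in each replicate number, which has no test, PDCD4 passed in M3 against M1 (16.7% of all genes with a count), M4 against M1 (20.7%) and M4 against M2 (18.7%). It did not pass in M3 against M2 (12.3%), where M3 replicate 1 was at 78.3 CPM and M2 replicate 1 at 156 CPM.

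Levels between genes were compared per kilobase of the canonical transcript. In M1 the order was EIF4A1 (815 ± 47.5 CPM per kilobase, SD, n = 2), EIF4G2 (231 ± 8.55), EIF4A2 (176 ± 36.3), EIF4G1 (108 ± 6.58), PDCD4 (68.2 ± 25.1), EIF4EBP1 (63.8 ± 1.21), EIF4A3 (39.8 ± 0.886), EIF4E (29.2 ± 3.02), EIF4EBP2 (15.2 ± 1.02) and EIF4G3 (13.6 ± 1.76). PDCD4 and EIF4EBP1 did not differ beyond their spread, nor did EIF4EBP2 and EIF4G3. In M4 PDCD4 was at 15.8 ± 1.58 CPM per kilobase, below EIF4A3 (35.05 ± 0.686) and EIF4E (39.0 ± 4.18) and within the spread of EIF4EBP2 (12.6 ± 3.11), and EIF4G1 (201 ± 18.7) lay above EIF4A2 (161 ± 11.4). Per kilobase of all annotated exons, which counts retained introns as length, EIF4A1 was at 276 ± 16.1, EIF4A2 at 54.1 ± 11.2 and PDCD4 at 52.2 ± 19.2 in M1, so the gap between PDCD4 and the helicases depends on the length used and its change between lines does not.

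**Figure D4:**
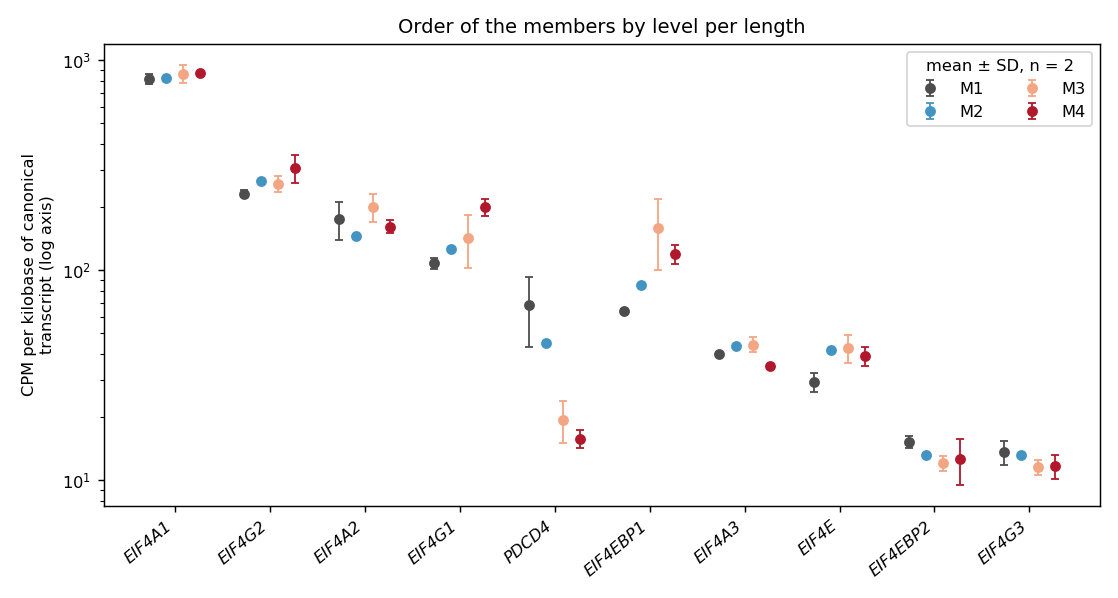
Mean level per kilobase of canonical transcript (log axis) with SD (n = 2) of each of the 10 genes in M1 to M4, ordered by the M1 level. EIF4A1 is highest in every line (815 in M1), and PDCD4 moves from 68.2 in M1 to 15.8 in M4.

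The pattern of PDCD4 over the 8 libraries was shared by genes outside the translation machinery. Of 9088 protein-coding genes with a mean of at least 10 CPM, those with the highest Pearson correlation to its log2 CPM were MAOA (r = 0.993), NFS1 (r = 0.988), KCTD1 (r = 0.986), NEBL (r = 0.984) and SNN (r = 0.984). These are descriptions over 8 libraries of 4 lines, which share the order of the lines and the gap between the M1 replicates. MAOA, which encodes a monoamine oxidase, was at 823 and 232 CPM in M1, 113 and 112 CPM in M2, and 1.18 to 5.68 CPM in M3 and M4. NFS1, a cysteine desulfurase that supplies sulfur for iron-sulfur clusters, was at 64.1 and 47.8 CPM in M1 and 27.6 and 29.0 CPM in M4. NEBL, which encodes the actin-binding protein nebulette, was at 143 and 58.6 CPM in M1 and 8.20 and 6.57 CPM in M4. Among the 10 genes, the correlation with PDCD4 ran from 0.77 for EIF4G3 to -0.80 for EIF4G1, and EIF4G3 ranked 849 of the 9088.

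Other genes of the cap complex moved in both directions. Of 14 tested, 5 were called in M4 against M1, 2 higher and 3 lower, beside 31.4% of all genes called, with a median log2 fold change of -0.15. Under the exchange edgeR called 0 of the 14, with 3 at an unadjusted p under 0.05. EIF4EBP3, the third 4E-BP, was at 18.2 and 18 CPM in M1, 11.7 and 11.4 CPM in M2, 6.59 and 3.64 CPM in M3, and 5.22 and 6.14 CPM in M4. Under the sample labels its libraries were in the order M1, M2, then M3 and M4 without overlap. It was called lower in M3 (-1.82 ± 0.29 SE, adjusted p from edgeR 0.00541) and M4 (-1.67 ± 0.29, adjusted p 0.00473), the direction opposite to EIF4EBP1. With the 2 libraries exchanged, neither difference was called (adjusted p 0.119 in M3 and 0.0681 in M4). EIF4B, which stimulates the eIF4A helicase, fell by 0.79 on the log2 scale in M4 (adjusted p 0.0219), and PABPC1, the poly A-binding protein that contacts eIF4G, fell by 0.67 (adjusted p 0.0292). MKNK1, a kinase that phosphorylates eIF4E on the eIF4G scaffold, was at 23.4 and 22.7 CPM in M1 and 38.3 and 36.7 CPM in M4 (0.70 ± 0.14, adjusted p 0.00779). EIF4E2, a second cap-binding protein, rose by 0.42 (adjusted p 0.0293). The calls of EIF4E2 and PABPC1 were lost without any 1 of the M1 and M4 libraries, and that of EIF4B without M1 replicate 2 or M4 replicate 1 (adjusted p up to 0.135).

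Of 29 other initiation factors, 11 were called in M4 against M1, 5 higher and 6 lower, beside 31.4% of all genes called, with a median of 0.14. Under the exchange 2 were called, EIF3E and EIF3K. The 3 largest falls among the called genes were in subunits of eIF3, the complex that bridges eIF4G and the small ribosomal subunit: EIF3K (-1.22 ± 0.18 SE, adjusted p from edgeR 0.00264), EIF3L (-1.09 ± 0.22, adjusted p 0.00924) and EIF3E (-1.05 ± 0.18, adjusted p 0.00509). EIF3K was at 445 and 359 CPM in M1 and 178 and 167 CPM in M4. Among the called genes the 3 largest rises were in EIF2B2, a subunit of the exchange factor that reloads eIF2 with GTP (0.62 ± 0.19, adjusted p 0.0405), EIF1, which guards start codon choice (0.56 ± 0.14, adjusted p 0.0179), and EIF2S1, the alpha subunit of eIF2 (0.53 ± 0.14, adjusted p 0.0211). EIF6 had a log2 fold change of 0.65 and was not called (adjusted p 0.0595). Of the calls, that of EIF1 was lost without any 1 of the M1 and M4 libraries, that of EIF2B2 without M1 replicate 1 or either M4 library, that of EIF2S1 without M1 replicate 2 or either M4 library, and that of EIF3L without M4 replicate 1.

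Of 16 genes of the mTOR, S6 kinase and ubiquitin ligase route that acts on PDCD4 protein, 4 were called in M4 against M1, 1 higher and 3 lower, beside 31.4% of all genes called, with a median of -0.02. After the exchange of libraries 2 were called, DDIT4 and AKT1S1. The S6 kinase gene RPS6KB2 rose by 0.53 on the log2 scale (adjusted p from edgeR 0.0380). DEPTOR, a component and inhibitor of mTOR complexes, was at 9.13 and 27.5 CPM in M1, 6.37 and 6.04 CPM in M2, 5.82 and 15.0 CPM in M3, and 0.740 and 1.23 CPM in M4 (-4.22 ± 0.67, adjusted p 0.00362). DDIT4, a stress-induced inhibitor of mTOR signalling, was at 1825 and 2324 CPM in M1 and 749 and 809 CPM in M4 (-1.41 ± 0.31, adjusted p 0.0128). AKT1S1, the proline-rich substrate of AKT, was at 157 and 140 CPM in M1 and 75.5 and 66.2 CPM in M4 (-1.07 ± 0.14, adjusted p 0.00146). TSC1 and TSC2 together restrain mTOR complex 1. Their log2 fold changes in M4 against M1 were 0.33 (adjusted p 0.163) and -0.41 (adjusted p 0.0730). Against M1, TSC2 was called lower in M2 (-0.70, adjusted p 0.0422) and in M3 (-0.84, adjusted p 0.00832). Of 12 alternative fits, 6 kept the M2 call and 10 the M3 call. Both TSC2 calls were lost with the 2 libraries exchanged and in a fit of only the 2 lines. TSC1 was called higher in M4 than in M2 (0.70, adjusted p 0.0207) and M3 (0.71, adjusted p 0.0248). Both of these TSC1 calls were lost with the 2 libraries exchanged (adjusted p 0.236 and 0.119) and in most fits without 1 library. RPS6KB1, which encodes the kinase best known for marking PDCD4, had a log2 fold change of -0.03 (adjusted p 0.935), and BTRC, which recognises the mark, one of 0.42 (adjusted p 0.0700). The call of DDIT4 was lost without M1 replicate 2 or either M4 library, and so was that of RPS6KB2 (adjusted p up to 0.165).

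Of 4 genes at the PDCD4 mRNA (PDCD4-AS1 and the RNA-binding proteins ELAVL1, TIA1 and TIAL1), 2 fell in M4 against M1 (31.4% of all genes called), also with the 2 libraries exchanged: PDCD4-AS1 as above and TIA1 (-1.07 ± 0.22 SE, adjusted p from edgeR 0.00938). TIA1 was at 39.2 and 54.3 CPM in M1 and 24.1 and 20.6 CPM in M4, and its call was lost without M4 replicate 2 (adjusted p 0.0784). Of 12 exon junction and mRNA decay genes, the surroundings of EIF4A3, 3 were called in M4 against M1, MAGOHB and UPF2 higher and UPF3A lower, beside 31.4% of all genes called, with a median of 0.25. Under the exchange edgeR called 0 of the 12, with 1 at an unadjusted p under 0.05. The call of UPF2 was lost without M1 replicate 2 or M4 replicate 2, and that of UPF3A without M1 replicate 1 or either M4 library. MAGOHB was at 7.14 and 7.05 CPM in M1 and 16.0 to 19.9 CPM in the other lines, but it is nearly identical to MAGOH and reads may be split between them.

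Genes whose translation is known to depend on the eIF4F complex were looked at as mRNA. Of 12 such genes, 8 were called in M4 against M1, 7 higher and 1 lower, beside 31.4% of all genes called, and the median log2 fold change was 0.86. After the exchange of libraries 4 were called (FGF2, BCL2L1, CCND1 and CCND3), and the median was 0.63. FGF2, a growth factor, was at 3.99 and 4.38 CPM in M1, 3.85 and 3.13 CPM in M2, 23.2 and 32.8 CPM in M3, and 50.1 and 38.0 CPM in M4 (3.4 ± 0.25 SE, adjusted p from edgeR 0.00022). Its M1 and M2 libraries did not overlap those of M3 and M4. ODC1, the first enzyme of polyamine synthesis, was at 143 and 142 CPM in M1 and 587 and 722 CPM in M4 (2.20 ± 0.41, adjusted p 0.00665). BCL2L1, an inhibitor of apoptosis, was at 76.6 and 41.3 CPM in M1 and 183 and 181 CPM in M4 (1.63 ± 0.30, adjusted p 0.00629). CCND3, a D-type cyclin, fell by 0.69 on the log2 scale (adjusted p 0.00830, and 0.0587 without M4 replicate 1). MYC, the best known gene of this list, had a log2 fold change of -0.46 that was not called (adjusted p 0.0992). The list also holds BIRC5, a gene of dividing cells, and the proliferation markers, whose sums are given above, had a median of 1.25. The part of cell division in these values was not tested.

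**Figure D5:**
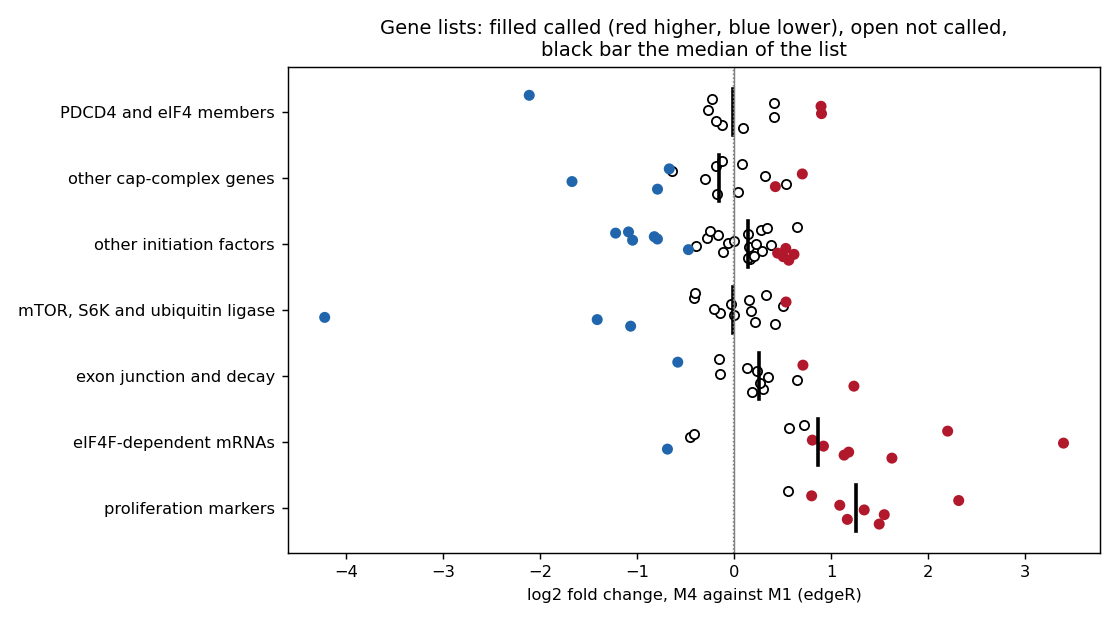
Log2 fold change in M4 against M1 from edgeR (horizontal axis) for each gene of 7 lists. Filled points were called (red higher, blue lower), open points were not, and black bars are list medians. The 10 members have a median of -0.02, the eIF4F-dependent mRNAs one of 0.86 and the proliferation markers one of 1.25.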

How the data were processed

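The deposited table holds expected counts per gene for 8 libraries, which the authors estimated with STAR/RSEM on GENCODE v19 after trimming (Trimmomatic) and alignment by STAR to hg19 (GRCh37), with Picard among the tools listed in the submitters' processing notes. Tool versions and the strand setting are not given in the sources used here. The values are not normalized, and 12.8% of them are not whole numbers. Groups came from the sample labels.

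After rounding, counts were tested in edgeR 4.0.16 (R 4.3.3) by quasi-likelihood with robust estimation, TMM scaling and filterByExpr. All 8 libraries entered 1 fit with a coefficient per line. P-values were adjusted by Benjamini-Hochberg over 18431 genes, and a gene counted as called when its adjusted p was under 0.05. Standard errors were derived from the F value. CPM values are TMM-scaled. The spread is pooled over lines, although M2 replicates were closest (Spearman's rho 0.998 over 13495 genes, against 0.971 in M1). They still differed by more than counting error (chi-square per degree of freedom 6.95). An exact permutation test of the ratio of helicases to PDCD4 was run (scipy 1.17.1), but its p is not given, since the libraries of a side are 2 lines. Positions, lengths and 3′UTRs came from GENCODE release 44 on GRCh37. The fitting step was tested on simulated data for M4 against M1 with 18431 genes. It called 81 of 100 genes changed 4-fold, 22 of 100 changed 2-fold and 7 of 18231 unchanged, so most simulated 2-fold changes were missed. Far fewer genes were changed in the simulation than were called in the data, and its spread per gene was the same in all lines. The share of 2-fold changes missed in the data was therefore not measured.

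Beside the 10 genes, PDCD4-AS1 and HRAS, the genes named are the up to 3 largest rises and falls called in M4 against M1 in each list, and the 5 genes most correlated with PDCD4 (log2 CPM, prior count 2). RPS6KB1, BTRC, TSC1, TSC2, EIF6, MYC and BIRC5 were named after their values were seen. The members, lists and tests were chosen with earlier results of these data known. CYFIP1, RBM8A and PECAM1 matched no row and were not used here. Alternatives covered scaling, filters, DESeq2 1.42.0, a replicate block, fits restricted to the compared lines, call rules, exchanged libraries, other helicase sums and lengths, and leaving out each library.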

Additional observations from a re-analysis of the deposited data

How the results depend on the processing

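The ratio of EIF4A1 plus EIF4A2 to PDCD4 was higher in M3 and M4 under every alternative run. Exchanging the 2 libraries could not change the difference, since M1 and M2 are on the same side. Canonical lengths could hardly change it, since they rescale all libraries by nearly the same factor. Nor could the other helicase sums, since EIF4A1 makes up most of each sum and PDCD4 stays the divisor. The difference was 1.74 on the log2 scale with EIF4A1 alone, 1.74 with EIF4A3 added and 1.75 with canonical lengths, and 1.51 to 1.84 with 1 library left out. Of the 720 fits of members under alternatives, 651 kept their direction and their side of the threshold, 23 lost a call, 13 gained one and 33 changed sign, none of these called. The number of members called depended on the fit. In M2 against M1 it was 1 with no filter (PDCD4), in place of 0. In M3 against M1 it was 0 with the libraries exchanged, 1 by the 2-fold rule in each replicate, 2 with RLE, with total counts, in a fit of only the 2 lines and by the adjusted p with 2-fold, and 2 to 4 with 1 library left out, in place of 3. In M4 against M1 it was 1 with the libraries exchanged, 1 by either rule that asks for 2-fold, and 1 to 2 with 1 library left out, in place of 3. In M3 against M2 it was 2 with no filter and with DESeq2, 0 with the libraries exchanged and by the 2-fold rule in each replicate, and 0 to 1 with 1 library left out, in place of 1. In M4 against M2 it was 2 with no filter, the stricter filter and DESeq2, 4 in a fit of only the 2 lines, and 0 to 1 with 1 library left out, in place of 1. In M4 against M3 it was 0 to 2 with 1 library left out, in place of 0. Fits without a library assume that the lone library of that line varies like the others. The cause was not tested where fits differ.

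Replicate numbers did not pair the samples: deviations of same-numbered libraries correlated at -0.024 to 0.122 between lines. The fit with the replicate block called 3 members in M3 and in M4 against M1, 1 in each of these lines against M2 and 0 in the other comparisons, and all genes called in M4 against M1 numbered 5446 in place of 5779. With the libraries exchanged it was 1815. Alternatives for genes of the other lists were added after seeing the data.

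Sign changes were in values whose 95% interval held 0. EIF4A1 in M2 against M1 was -0.0029 with RLE size factors, -0.022 with the stricter filter and -0.0014 with DESeq2. Scaling by total counts, added after seeing the data, gave -0.00058 for EIF4A1 in M3 against M2, -0.037 for EIF4A3 in M3 against M2, -0.030 for EIF4E in M3 against M2. It moved the median of all genes by up to 0.12 (M4 against M3, where 1636 of 3020 calls were then higher, in place of 1300 of 3091). Exchanging the libraries gave 0.24 for EIF4A2 in M2 against M1, -0.044 for EIF4A3 in M2 against M1, -0.087 for EIF4G1 in M2 against M1, -0.036 for EIF4EBP1 in M2 against M1, 0.12 for EIF4A2 in M4 against M1, 0.042 for EIF4G2 in M3 against M2, -0.11 for EIF4A2 in M4 against M2, 0.10 for EIF4E in M4 against M2. In M2 against M1, leaving out 1 library gave -0.052 to 0.072 for EIF4A1, -0.17 to 0.089 for EIF4G3. In M3 against M1, leaving out 1 library gave -0.013 to 0.19 for EIF4A1, -0.0055 to 0.42 for EIF4A2. In M3 against M2, leaving out 1 library gave -0.025 to 0.17 for EIF4A1, -0.055 to 0.11 for EIF4A3, -0.13 to 0.18 for EIF4E, -0.15 to 0.45 for EIF4G1, -0.13 to 0.055 for EIF4G2. In M4 against M1, leaving out 1 library gave -0.30 to 0.10 for EIF4A2. In M4 against M2, leaving out 1 library gave -0.19 to 0.014 for EIF4E, -0.32 to 0.17 for EIF4EBP2. In M4 against M3, leaving out 1 library gave -0.089 to 0.11 for EIF4A1, -0.28 to 0.028 for EIF4E, -0.76 to 0.020 for EIF4EBP1, -0.19 to 0.30 for EIF4EBP2, -0.10 to 0.15 for EIF4G3.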
